A study of Rattus norvegicus with 89 samples.

Results

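Kidneys of rats given saline for 1 day, the vehicle controls of an early time point, were compared with kidneys of naive rats across all measured genes. The rats were chosen by the sample titles, which put 7 in the saline group of day 1 and 6 in the naive group, 13 of the 89 rats of the series. The saline group had 3 males and 4 females, and the naive group had 3 of each sex. All were Sprague-Dawley rats of the stock Crl:CD(SD), 7 to 8 weeks old at the start, acclimated for 6 days and housed singly. The other rats of the series received saline for 5 days or 1 of 6 compounds (Cadmium, Cisplatin, Doxorubicin, Gentamycin, Tobramycin or ValproicAcid) for 1 or 5 days. The dose volume, route and hour of the saline and the hour of death are not in the labels. The apical parts of the right and left kidney of each rat were pooled into 1 homogenate, and 1 Affymetrix array was hybridised per rat. Values are MAS5 signals, scaled to a common level, so each is a relative brightness with no count behind it, and the number of arrays limits the precision. A difference is saline day 1 minus naive, on the scale of log2(signal + 16), with sex as a term.

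The labels were complete for 11 of the 13 rats. Female 1F104 has no treatment text, and the treatment text of male 1M2 names 5 days, while the titles of both name 1 day of saline. Leaving out both gave 0 genes passing, as with all 13. The trimmed mean of an array's signals was 136.9 to 352 in saline rats and 131.5 to 197 in naive rats before the arrays were scaled, with 1F104 (352) and 1M1 (295) the brightest of the 13. The rank correlation between arrays of the same sex was 0.964 to 0.988. The 3′ to 5′ signal ratio of GAPDH, a measure of RNA integrity, was 1.22 to 1.40 in saline rats and 1.14 to 1.39 in naive rats. Eif2s3y, on the Y chromosome, was 486 or more in all 44 males and 10.05 or less in all 45 females of the series, so 0 arrays contradicted their labelled sex in this gene. The probe set annotated as Uty, also Y-linked, did not separate the sexes in this way (259 to 399.5 in males and 378.5 to 782 in females).

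The kidney's proximal tubule takes back most filtered sodium, phosphate, glucose and amino acids and burns fatty acids to pay for it, while the loop of Henle, distal tubule and collecting duct set the final salt and water content of the urine. Handling, injection and a salt load can reach the kidney through stress hormones, through the sympathetic nerves and through volume sensing. Kidney genes also follow the circadian clock, so the hour of death is part of any comparison between groups. The defining proximal tubule markers were bright in all 13 rats: Slc34a1, the main phosphate transporter of the apical membrane, was 3462 to 5914 in saline rats and 5852 to 7501 in naive rats, and Lrp2, which encodes the endocytic receptor megalin, was 4856 to 5384 in saline rats and 5193 to 5961 in naive rats. In bulk tissue fewer cells of a type and less RNA per cell cannot be told apart.

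In this comparison 0 of 11420 genes tested passed at an adjusted p of 0.05 (0%) in limma with Benjamini-Hochberg adjustment, and the smallest adjusted p was 0.288. At an unadjusted p under 0.05 there were 929 genes, of which 495 were higher in saline rats (4.33%) and 434 were lower (3.8%), while 571 is 5% of the genes tested. Without scaling of the arrays the median over all genes was 0.32 and 98.7% of the genes at an unadjusted p under 0.05 were higher, against 53.3% with scaling, so each direction below is relative to the common level of the arrays. The median difference over all genes was 0.012, and the median of its absolute size was 0.083, under the median SE of 0.10. In 10 genes every saline rat lay above every naive rat (0.0876%), and in 10 every saline rat lay below (0.0876%). In 726 of the 11420 genes every saline rat lay on the same side of the naive mean of its sex. The fit of all 89 arrays, which takes the spread from all 15 groups, also gave 0 genes, with 772 at an unadjusted p under 0.05. Single rats bore on these counts. Without saline rat 1M1, 10 genes passed, and among the genes named here these were Fgg, Apoh, Ahsg, Serpina1 and Cps1, higher, and Hsd17b2 and LOC100910973, lower. Without saline rat 1M3, 2 passed (Ubl5 and Arpc4), and without naive rat 8F181, 1 passed (Sh3bp1). The genes below are therefore described by their values, and the word lower or higher compares values and is no call.

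The genes of smallest unadjusted p that were lower after saline encode proteins of splicing, proton pumping, lipid metabolism and antigen display. Ubl5, a ubiquitin-like protein that works in pre-mRNA splicing, had a signal of 823 to 1439.7 (median 1007) in the saline rats, against 1432 to 1706 (median 1543) in the naive rats. It was below the naive mean of its sex in 7 of 7 saline rats (log2 difference -0.62, SE 0.11, adjusted p = 0.288), and only 1M3, at 1439.7, reached the naive range. Tcirg1, a membrane subunit of the vacuolar proton pump, was 86.1 to 121.02 (median 101.7) in the saline rats, against 127.6 to 156.2 (median 145) in the naive rats. The groups did not overlap (log2 difference -0.44, SE 0.083, adjusted p = 0.288). A second, dimmer probe set of Tcirg1 went the other way, with means of 44.0 in saline and 31.7 in naive rats (log2 difference 0.31, limma unadjusted p = 0.0731). Angptl4, a secreted inhibitor of lipoprotein lipase and a target of PPAR receptors, was 173 to 339.9 (median 271) in the saline rats, against 357 to 439 (median 395) in the naive rats. Here too every saline rat lay below every naive rat (log2 difference -0.64, SE 0.13, adjusted p = 0.288), and the 3 lowest values, 173, 181.01 and 196, were those of females. Hsd17b2, which oxidises oestradiol and testosterone to their weaker forms, had a mean of 39.9 ± 23.999 (SD, n = 7) in saline rats and 118.5 ± 94.3 (SD, n = 6) in naive rats and differed by sex in both groups. It was 41.4, 40.98, 75.2 and 63.5 in saline females, against 155.3, 153 and 274 in naive females, with no overlap. In males it was 33.7, 18.3 and 6.10 after saline, against 24.6, 46.6 and 57.2 in naive males, with overlap (log2 difference -1.18, SE 0.23, adjusted p = 0.288).

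The remaining 8 of the 12 lowest-ranked p among lower genes had log2 differences of -0.66 to -0.41. Cyp4a3, a fatty acid omega-hydroxylase that is abundant in the kidney, was 2679 to 5693 (median 3908) in the saline rats, against 4438 to 7611 (median 6466) in the naive rats (log2 difference -0.60, SE 0.12, adjusted p = 0.299). Rtp4, an interferon-induced chaperone of membrane receptors, was 73.6 to 119.3 (median 90.7) in the saline rats, against 111.3 to 269.9 (median 152) in the naive rats (log2 difference -0.66, SE 0.14, adjusted p = 0.299). Arpc4, a subunit of the actin-nucleating Arp2/3 complex, was 336 to 649 (median 387) in the saline rats, against 601 to 703 (median 666) in the naive rats (log2 difference -0.60, SE 0.13, adjusted p = 0.299). In each of these 3 all saline rats were below the naive mean of their sex, while the ranges of the groups overlapped. RT1-S3, a class I antigen-presenting gene of the rat, was 194 to 389.7 in saline rats and 292 to 506 in naive rats (log2 difference -0.49). Adrm1, a ubiquitin receptor of the proteasome, was 120.4 to 213 in saline rats and 166 to 268 in naive rats (log2 difference -0.51). Swi5, a cofactor of recombinational repair, was 246 to 405 in saline rats and 314 to 471 in naive rats (log2 difference -0.41). Clec11a, a secreted growth factor, was dim at 23.9 to 41.6 in saline rats and 38.8 to 66.6 in naive rats, and LOC100910973, which has no gene name here, was 434 to 715 in saline rats and 586 to 1016 in naive rats (log2 differences -0.49 and -0.51). A second probe set of Clec11a, also dim, had a log2 difference of -0.057, with means of 23.9 in saline and 25.5 in naive rats. All 8 were below the naive mean of the same sex in 7 of 7 saline rats, with an adjusted p of 0.299.

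Among the genes of smallest unadjusted p that were higher after saline were a hormone-regulated binding protein, plasma proteins usually made by the liver, an autophagy receptor and a subunit of the sodium pump. Igfbp1, which binds insulin-like growth factors and responds to insulin and glucocorticoids, was 529 to 1092 (median 858) in the saline rats, against 339.8 to 655 (median 536) in the naive rats (log2 difference 0.62, SE 0.12, adjusted p = 0.288). It was above the naive mean of its sex in 7 of 7 saline rats, and the groups overlapped only through the male 1M2 (529) and the naive females. Optn, an autophagy receptor, was 386 to 503.8 (median 435) in the saline rats, against 291 to 397 (median 354) in the naive rats (log2 difference 0.34, SE 0.072, adjusted p = 0.299). A second, dimmer probe set of Optn had a log2 difference of 0.045. Atp1b3, a beta subunit of the sodium pump, was 970.2 to 1255 (median 1101) in the saline rats, against 854 to 1063 (median 894) in the naive rats (log2 difference 0.27, SE 0.061, adjusted p = 0.299). Within each sex Atp1b3 was higher in all saline rats than in all naive rats. Mybl1, a MYB-family transcription factor, was far apart between the sexes, with 38.3 to 63.1 in saline females against 24.7 to 29.4 in naive females. In males it was 627 to 757 after saline against 502 to 559 in naive rats, and neither sex showed an overlap (log2 difference 0.49, SE 0.10, adjusted p = 0.288). Sh3bp1, an SH3-domain binding protein, was 29.8 to 57.997 (median 45.4) in the saline rats, against 10.5 to 51.4 (median 12.9) in the naive rats, and its highest naive value was that of the single female 8F181 (log2 difference 0.80, SE 0.18, adjusted p = 0.299).

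Slc18b1, a vesicular polyamine carrier, was 549 to 1036 in saline rats and 417 to 781 in naive rats (log2 difference 0.31). Nadk2, the mitochondrial NAD kinase, was 264 to 476 in saline rats and 204 to 299 in naive rats (log2 difference 0.40). Mgat4a, an enzyme that branches N-glycans, was 293 to 503 in saline rats and 193 to 310.2 in naive rats (log2 difference 0.41, and -0.12 in a second, dim probe set). In these 3 genes the saline females lay above all naive rats. Myzap, a protein of cell junctions, was 82.98 to 237 in saline rats and 67.7 to 131.1 in naive rats (log2 difference 0.42). Tmem215 was 10.7 to 27.5 in saline rats and 1.22 to 7.55 in naive rats, and although the groups did not overlap, every value lay under 33.06, the limit used here for a dim signal (log2 difference 0.65). All 12 genes were above the naive mean of their sex in 7 of 7 saline rats, and their adjusted p ran from 0.288 to 0.299. The genes of both directions were picked by small p on these same values, so this agreement is no separate support. Over 27 other ways of processing the data, log2 differences ran from 0.54 to 0.95 for Igfbp1 (adjusted p 0.0732 to 1) and from -0.96 to -0.27 for Angptl4 (adjusted p 0.056 to 1).

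**Figure D1:**
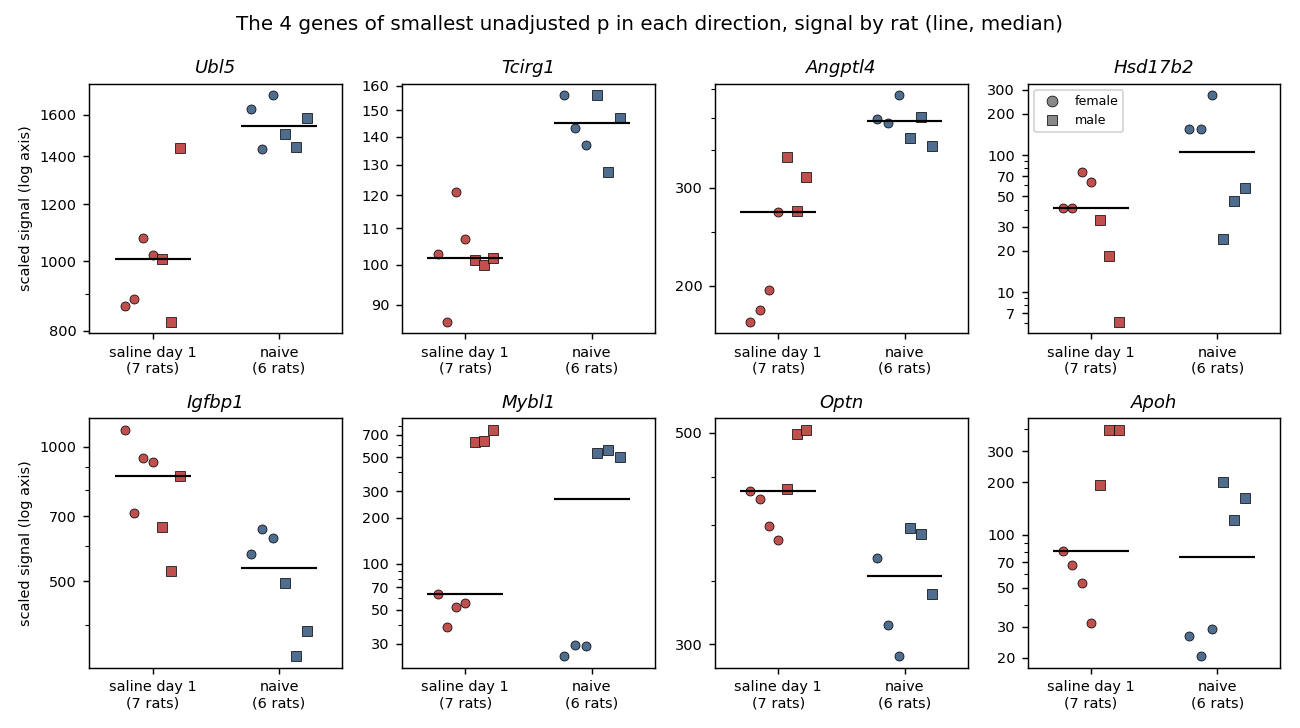
Scaled signal (log axis) of the 4 genes of smallest unadjusted p in each direction, 1 point per rat, circles for females and squares for males, with a line at the median of each group. In the upper row Tcirg1 and Angptl4 show no overlap between saline and naive rats, and in the lower row males lie above all females of either group for Mybl1 and Apoh.

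Transcripts that mark the liver, which makes most plasma proteins, had higher values in most saline rats, and Alb had the largest log2 difference of all genes tested. Of 9 liver markers tested, 8 were higher in saline rats, 7 of them at an unadjusted p under 0.05 (4.33% of all genes), with a median difference of 1.04 against 0.012 over all genes. Alb, the gene of serum albumin, had a signal of 968 in 1F101, 794 in 1F102, 1356 in 1F103, 1048 in 1M2 and 1482 in 1M3, and of only 12.2 in 1F104 and 8.71 in 1M1. In naive rats it was 5.89 to 89.9 (median 16.4). The saline rats thus split into 5 far above every naive rat and 2 within the naive range (log2 difference 3.40, SE 1.16, adjusted p = 0.51). Serpina1, which encodes alpha-1-antitrypsin, was 14.1 to 93.2 (median 76.0) in the saline rats, against 6.45 to 20.5 (median 11.7) in the naive rats (log2 difference 1.27, SE 0.31, adjusted p = 0.299). Ahsg, the plasma protein fetuin-A, was 14.7 to 87.2 (median 58.3) in the saline rats, against 2.49 to 26.2 (median 15.7) in the naive rats (log2 difference 1.08, SE 0.29, adjusted p = 0.324). Itih3, a heavy chain of a plasma inhibitor that binds hyaluronan, was 2.80 to 86.1 (median 62.8) in the saline rats, against 3.69 to 22.6 (median 7.92) in the naive rats (log2 difference 1.23, SE 0.38, adjusted p = 0.432). The same 2 rats, 1F104 and 1M1, were the lowest of the saline group in each of these genes. Apoa2, an apolipoprotein of high-density lipoprotein, was 0.955 to 56.4 (median 45.5) in the saline rats, against 2.16 to 21.3 (median 5.03) in the naive rats (log2 difference 0.96, SE 0.33, adjusted p = 0.491). Since the naive values of Serpina1, Ahsg, Itih3 and Apoa2 lay under 33.06, the size of their differences depends on the 16 added to each signal.

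Other liver markers followed the rats less strictly. Cps1, the entry enzyme of the urea cycle, was 9.92 to 242 (median 152) in the saline rats, against 13.1 to 89.4 (median 32.1) in the naive rats (log2 difference 1.04, SE 0.25, adjusted p = 0.299), and its highest value, 242, was that of 1F104. Fgb and Fgg, which encode fibrinogen chains and are also made by injured tubules, were 6.07 to 61.6 in saline rats and 0.822 to 41.3 in naive rats for Fgb (log2 difference 0.62) and 10.6 to 153 in saline rats and 2.22 to 61.5 in naive rats for Fgg (log2 difference 1.25, SE 0.28, adjusted p = 0.299). In both, 1M1 was the lowest saline rat. Apoh, a plasma protein that binds phospholipids and lies outside the list, was 80.6, 67.3, 52.96 and 31.4 in saline females, against 26.6, 20.3 and 29.3 in naive females. In males it was 194, 394 and 397 after saline, against 200.02, 121.1 and 161 in naive males (log2 difference 0.85, SE 0.19, adjusted p = 0.299). Apob, the large apolipoprotein, overlapped widely at 28.3 to 51.8 in saline rats and 11.4 to 52.2 in naive rats, Cyp2c11, a male-specific cytochrome P450, had a log2 difference of -0.10, and Tat, a liver aminotransferase, was under 33.06 in all 13 rats. A list's score in a rat is how far the log2 values of its genes lay, on average, from the naive mean of that sex. Naive rats are part of that mean, which draws their scores toward 0 and narrows their range. The liver score was 1.31 to 1.63 in the 5 rats with bright Alb, 0.14 in 1F104 and 0.11 in 1M1, against -0.20 to 0.28 in naive rats.

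Liver transcripts were bright in rats of other groups too. Alb exceeded the highest naive value in 5 of 6 rats given gentamicin (Gentamycin in the labels) for 1 day, up to 3819, and in 4 of 6 given doxorubicin, up to 3579. In saline rats of day 5 it did so in 1 of 5, where it was 1855, and in no group of the series did every rat exceed the naive range. The fit with the liver score as a further term, chosen after the data were seen, gave 0 genes passing, with 445 at an unadjusted p under 0.05. The source of these transcripts was not tested. The medians of the gene groups below are also given with the liver score as a term where that moved them by over 0.1. The score was 1.31 or more in 5 of 7 saline rats and at most 0.28 in naive rats, so this term nearly repeats the groups. That fit depends heavily on 1F104 and 1M1, the brightest arrays before scaling, and cannot separate the liver transcripts from the group. The part of the liver transcripts in these medians was not tested.

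Stretches of 3 promoters are printed because their genes were higher in the saline rats and hold a half-site of hepatocyte nuclear factor 1, a regulator of liver and proximal tubule genes. They come from RefSeq on GRCr8, are written 5′ to 3′ on the strand of the gene, and the capitals mark the half-site, searched as GTTAAT and, for the other strand, ATTAAC. The site lies 82 bases before the start of Alb in chr14:17907006-17907111 (minus strand), 90 before that of Fgb in chr2:170700910-170701015 (minus strand) and 69 before that of Igfbp1 in chr14:86261158-86261263 (plus strand).
Alb: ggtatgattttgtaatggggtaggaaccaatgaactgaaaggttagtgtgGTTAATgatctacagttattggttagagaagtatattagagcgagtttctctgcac
Fgb: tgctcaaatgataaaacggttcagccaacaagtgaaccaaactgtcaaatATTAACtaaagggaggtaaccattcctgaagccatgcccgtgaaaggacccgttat
Igfbp1: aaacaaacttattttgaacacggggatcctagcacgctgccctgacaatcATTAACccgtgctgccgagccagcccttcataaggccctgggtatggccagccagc
Of the 7 tested liver markers with an entry, 2 (Alb and Fgb) hold it within 250 bases before the start, and of all 33469 promoters 6.45% do. A match describes the letters and shows no binding.

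**Figure D2:**
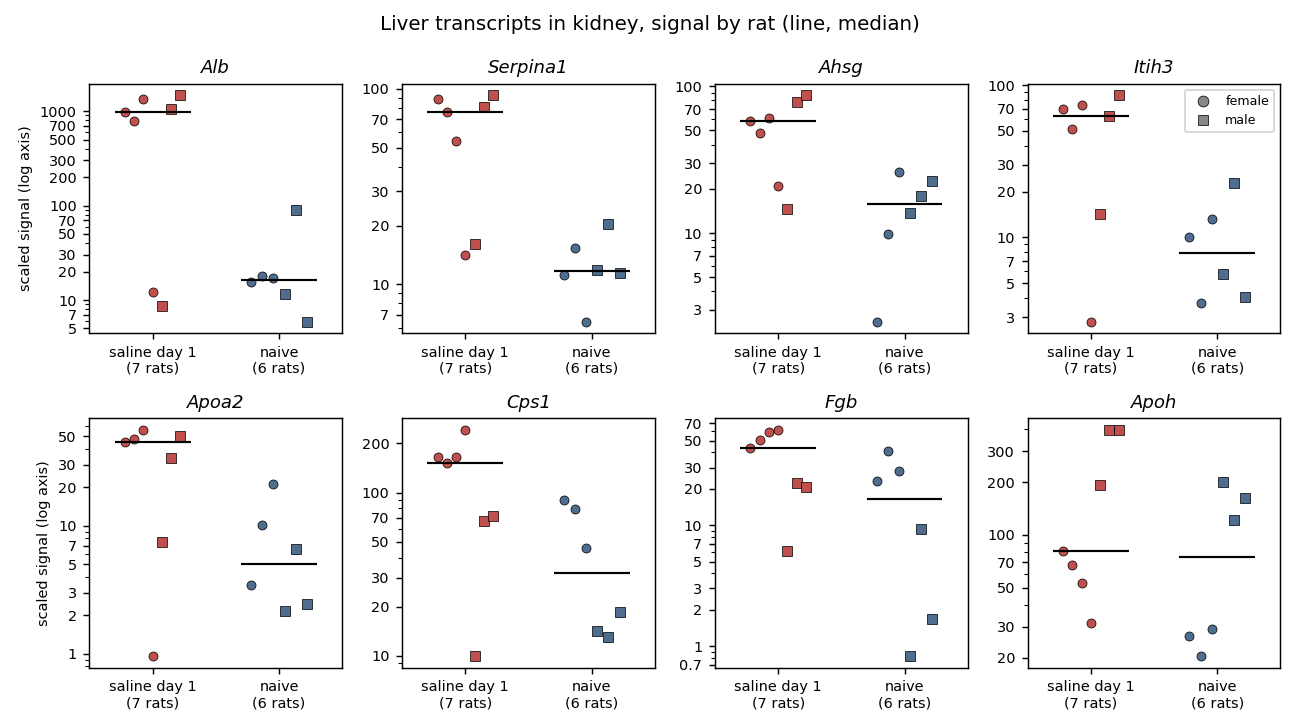
Scaled signal (log axis) of 8 transcripts of plasma proteins and liver enzymes by rat, with a line at the median of each group. For Alb, Serpina1, Ahsg and Itih3, 5 saline rats stand above all naive rats, while 1F104 and 1M1 lie within or below the naive range.

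Most genes of the interferon response had lower values in saline rats than in naive rats when the arrays were scaled. Unscaled, the median of the list was slightly above 0 but under the 0.32 of all genes. Isg15, Mx1 and Oas1a, the members of smallest p, were lower in all 27 other settings, no scaling included, with log2 differences of at most -0.29, -0.37 and -0.24. Type I interferons raise antiviral genes, many of which hold interferon-stimulated response elements in front of their start. Of 22 tested members, 20 were lower, 8 at an unadjusted p under 0.05 (3.8% of all genes) and 0 after adjustment, with a median of -0.24 (0.070 without scaling). Isg15, a ubiquitin-like antiviral protein, was 94.9, 131.4, 165 and 91.4 in saline females, against 157.1, 196 and 168 in naive females. In males it was 51.7, 99.5 and 66.1 after saline, against 130.1, 135 and 103.2 in naive males. The males did not overlap, and of the females 1F103 alone reached the naive range (log2 difference -0.58, SE 0.14, adjusted p = 0.299). Mx1, a GTPase that blocks viral replication, was 43.9 to 145 (median 73.9) in the saline rats, against 96.2 to 159.001 (median 112.2) in the naive rats (log2 difference -0.66, SE 0.16, adjusted p = 0.299). Oas1a, which makes the second messenger of the RNase L pathway, was 23.3 to 61.5 (median 41.2) in the saline rats, against 54.3 to 71.1 (median 58.8) in the naive rats (log2 difference -0.49, SE 0.12, adjusted p = 0.299). Usp18, the protease that removes Isg15 from proteins, was 36.98 to 98.3 (median 67.6) in the saline rats, against 73.9 to 120.3 (median 99.3) in the naive rats (log2 difference -0.60, SE 0.16, adjusted p = 0.32). In all 4 genes the highest saline rat was 1F103. Ifit3, an antiviral protein of the tetratricopeptide family, was 26.4 to 49.8 in saline rats and 42.5 to 64.7 in naive rats (log2 difference -0.38), and Ifi44l was 102.7 to 181.8 in saline rats and 128.5 to 224 in naive rats (log2 difference -0.29). The score of the list was -0.49 to 0.0083 in saline rats and -0.085 to 0.10 in naive rats, and 6 of 7 saline rats lay below the lowest naive rat. The naive range is narrowed because naive rats are part of their own reference mean. Of rats given cisplatin for 1 day, 4 of 6 also lay below the lowest naive rat, and of those given gentamicin for 1 day, 5 of 6 lay above the highest. With the liver score as a term its median was -0.36, and without 1F104 and 1M2 it was -0.25.

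The promoters of 3 of these genes are shown because they hold the core of an interferon-stimulated response element, searched as GAAANNGAA and, for the other strand, TTCNNTTTC, and marked by capitals. Oas1a holds 2 overlapping matches in chr12:41330375-41330465 (plus strand), the nearer one 35 bases before the start. Ifit3 holds 2 in chr1:241527233-241527325 (plus strand), at 43 and 24 bases before the start, and Ifi44l holds 2 in chr2:243328583-243328722 (plus strand), at 90 and 59.
Oas1a: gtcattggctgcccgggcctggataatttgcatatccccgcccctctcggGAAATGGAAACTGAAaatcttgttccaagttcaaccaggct
Ifit3: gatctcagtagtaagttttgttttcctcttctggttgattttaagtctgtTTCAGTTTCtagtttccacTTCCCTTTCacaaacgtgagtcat
Ifi44l: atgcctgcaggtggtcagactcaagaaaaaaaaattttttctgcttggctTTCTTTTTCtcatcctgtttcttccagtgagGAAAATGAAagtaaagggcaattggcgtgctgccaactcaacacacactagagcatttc
Of the 16 tested members with an entry, 11 hold the core within 250 bases before the start, and of all 33469 promoters 8.12% do.

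The median of genes of antigen presentation was below 0 when the arrays were scaled. Unscaled, it was above 0 but under the 0.32 of all genes. Of 12 tested genes of the immunoproteasome and class I presentation, 11 were lower, with a median of -0.17 (0.13 without scaling). B2m, the light chain of class I molecules, was 3515 to 4740.3 in saline rats and 4459.9 to 5748 in naive rats, and was below the naive mean of its sex in 7 of 7 saline rats (log2 difference -0.22, unadjusted p = 0.00778). Tap2, a subunit of the peptide transporter, was 39.99 to 53.4 in saline rats and 43.9 to 74.3 in naive rats (log2 difference -0.24, unadjusted p = 0.0348). The score of this list was -0.29 to 0.052 in saline rats and -0.048 to 0.057 in naive rats. For immune cells, lymphocyte markers had a median of -0.077 over 7 tested genes, and markers of macrophages and granulocytes -0.090 over 16 (0.051 with the liver score as a term). Some markers of T and B cells, Cd3e, Cd8a, Cd79b and Ms4a1, were under 33.06 in all 13 rats, while others of the list were not as dim. Cd3d, Cd3g, Cd4, Lck and Zap70 were bright enough in the series to be among the 7 tested genes. Cd2 and Cd5 were not tested, and reached 38.6 and 33.106 in saline rats and 27.9 and 26.1 in naive rats. Inflammatory cytokines and adhesion molecules had a median of -0.11 over 13 genes.

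The median over output genes of the clock was below 0 when the arrays were scaled. Unscaled, it was above 0 but under the 0.32 of all genes. Dbp and Nr1d1, the members of smallest p, were lower in saline rats in all 27 other settings (log2 differences of at most -0.057 and -0.13). Without scaling, Bhlhe41 and Per2 had log2 differences of 0.082 and 0.11. In the circadian clock the activators Clock and Bmal1 drive the repressors of the Per, Cry and Rev-erb families and output factors such as Dbp. Of 12 output and repressor genes tested, 10 were lower in saline rats, 2 at an unadjusted p under 0.05 (3.8% of all genes), with a median of -0.20 (0.12 without scaling and -0.060 with the liver score as a term). Dbp, a transcription factor of the output arm, was 115.4 to 238 (median 124.4) in the saline rats, against 152 to 438 (median 193) in the naive rats (log2 difference -0.55, SE 0.20, adjusted p = 0.528). Nr1d1, the repressor Rev-erb alpha, was 88.1 to 187 (median 145.9) in the saline rats, against 109.8 to 344 (median 192) in the naive rats (log2 difference -0.53, SE 0.20, adjusted p = 0.547). Per2, a repressor of the core loop, was 127 to 260.0 (median 208) in the saline rats, against 143 to 335 (median 259) in the naive rats, with wide overlap (log2 difference -0.21, SE 0.19, adjusted p = 0.789). In naive males Dbp was 438, 299.9 and 174, so that the naive group alone spanned most of the range. Bhlhe41, a further repressor, was 64.5 to 104.7 in saline rats and 81.2 to 154 in naive rats (log2 difference -0.22). In the opposite phase, Cry1 was 102.6 to 282 (median 127) in the saline rats, against 76.2 to 161 (median 96.6) in the naive rats and was above the naive mean of its sex in 7 of 7 saline rats (log2 difference 0.45, SE 0.19, adjusted p = 0.583). Bmal1 was 118.5 to 156.8 (median 123.1) in the saline rats, against 78.8 to 166 (median 108) in the naive rats (log2 difference 0.19, SE 0.14, adjusted p = 0.718). Bhlhe40, a repressor like Bhlhe41 though counted here among activators and antiphase genes, was 96.8 to 247 in saline rats and 153 to 309 in naive rats (log2 difference -0.31). The list of activators and antiphase genes, Bhlhe40 included, had 5 of 7 higher and a median of 0.042.

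Some of the same genes set the saline rats apart from the mean of the compound groups of day 1. Saline day 1 was compared with the mean of the 6 compound groups of that day (36 rats) in 1 fit that also held the naive rats. In it 6 of 11420 genes passed (0.0525%, with 728 at an unadjusted p under 0.05), and 5 of the 6 belong to the clock. Dbp had 115.4 to 238 in saline rats, against 142.2 to 717 in compound rats, and fell by 1.197 on the log2 scale (SE 0.17, limma adjusted p = 6.44e-05). Nr1d1 had 88.1 to 187 against 118 to 467 and fell by 0.93 (adjusted p = 0.000238). The repressor Nr1d2 fell by 0.63 (adjusted p = 0.000238) and Per3 by 0.98 (adjusted p = 0.0438). Cry1 rose by 0.69 (adjusted p = 0.013) and Rnf125, a ubiquitin ligase, by 0.67 (adjusted p = 0.00114), while Bmal1 had a log2 difference of 0.73 and did not pass (adjusted p = 0.0504). The count was 12 without 1F104 and 4 to 9 without each other saline rat in turn. Naive rats against the same compound groups gave 4 genes (0.035%, with 1206 at an unadjusted p under 0.05): the lipoxygenase Alox15, the haem synthesis enzyme Alas2 and the secreted chaperone Manf rose by 0.76, 0.84 and 0.52, and Rhobtb3 fell by 0.55. That count was 16 without 8M81, and 0 without 8F181 or 8M83. Naive minus compounds, Dbp was -0.64 (adjusted p = 0.194) and Nr1d1 -0.38 (adjusted p = 0.383). The naive means thus lay between those of saline rats and the mean over the 6 compound groups, though above those of gentamicin rats. The comparisons share their compound rats. The hour of death of the groups is unknown here, and its part in the clock genes was not tested.

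A promoter is shown for the clock because Nr1d1 has an E-box, the element of the Clock and Bmal1 pair, searched as CACGTG, which reads the same on both strands. RefSeq lists 2 promoters of Nr1d1, and the stretch in chr10:84229590-84229695 (minus strand) carries the element 191 bases before the start.
Nr1d1: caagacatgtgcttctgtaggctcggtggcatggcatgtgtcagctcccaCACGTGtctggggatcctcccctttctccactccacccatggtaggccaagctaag
Of the 10 tested output and repressor genes with an entry, 3 (Bhlhe41, Nr1d1 and Tef) hold an E-box within 250 bases before the start, and of all promoters 5.59% do.

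**Figure D3:**
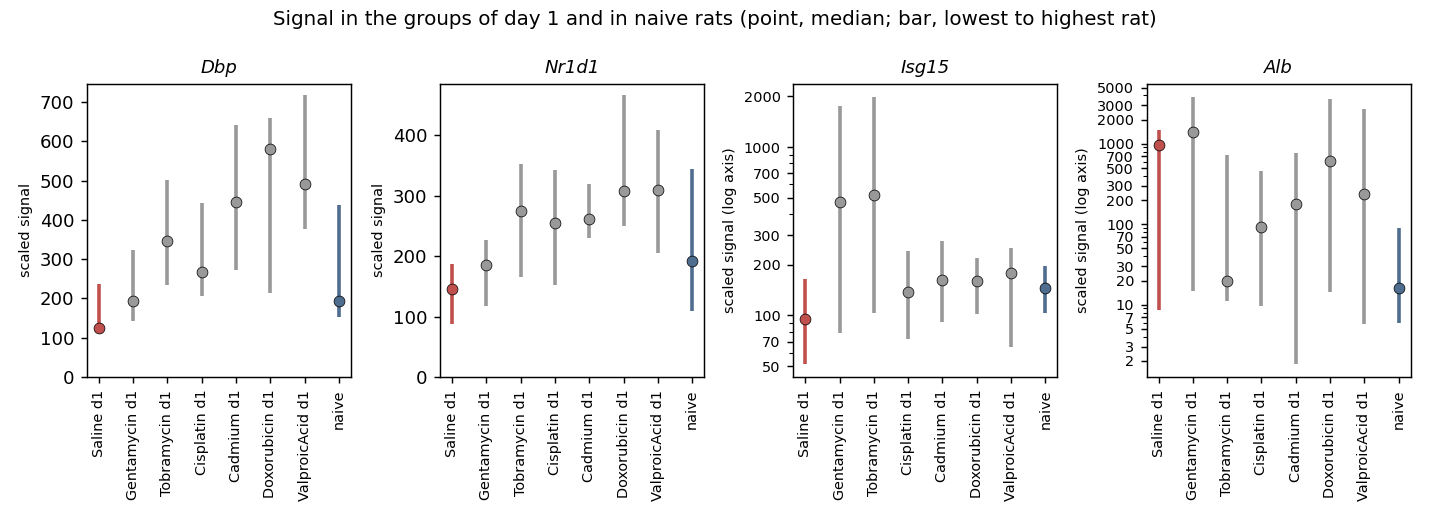
Scaled signal of Dbp and Nr1d1 (linear axes) and of Isg15 and Alb (log axes) in saline rats of day 1, the 6 compound groups of day 1 and naive rats, with a point at the median and a bar from the lowest to the highest rat. Saline rats have the lowest medians for Dbp (124.4) and Nr1d1 (145.9) among these 8 groups, and naive rats have the lowest median for Alb (16.4).

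Stress-responsive genes went in both directions. Glucocorticoids, released on handling, raise Fkbp5, Sgk1, Per1 and Tsc22d3 in many tissues. Fkbp5, a co-chaperone of the glucocorticoid receptor, was 293, 288, 161 and 168 in saline females, against 157.1, 175 and 139.5 in naive females. In males it was 349, 288 and 307 after saline, against 259, 219 and 202 in naive males, without overlap (log2 difference 0.45, SE 0.13, adjusted p = 0.4). Sult1a1, a sulfotransferase, was 529.7 to 968 (median 760.5) in the saline rats, against 477 to 825 (median 544) in the naive rats (log2 difference 0.37, SE 0.092, adjusted p = 0.299). Both were above the naive mean of their sex in 7 of 7 saline rats, while Pdk4, a brake on pyruvate oxidation, was lower in 6 of 7 rats at 368 to 753 in saline rats and 470.2 to 1116 in naive rats (log2 difference -0.56, SE 0.17, adjusted p = 0.427). Over the 13 tested genes of the glucocorticoid list 6 were higher, with a median of -0.046, -0.27 in males and 0.15 in females. Tsc22d3, a glucocorticoid-induced leucine zipper protein, was 1203 to 1917 in saline females against 798 to 950.1 in naive females, and 534 to 583 in saline males against 657 to 933 in naive males. It had the smallest unadjusted p of all genes for a difference between the sexes (male minus female -1.22, SE 0.22, adjusted p = 0.359), and did not pass.

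Immediate early genes, which respond to stimuli within minutes, had a median of 0.038 over 20 genes (-0.081 with the liver score as a term), with 11 higher. Klf4, a zinc finger factor, was 139.6 to 297 in saline rats and 127 to 189.7 in naive rats (log2 difference 0.29, unadjusted p = 0.0271), Jund, an AP-1 subunit, was 1787 to 2321 in saline rats and 1928 to 2434 in naive rats (log2 difference -0.12, unadjusted p = 0.13), and Nr4a1, an orphan nuclear receptor, was 63.0 to 130.7 in saline rats and 86.9 to 140.9 in naive rats (log2 difference -0.20, unadjusted p = 0.165). Among 16 heat shock chaperones the median was -0.033 (-0.19 with the liver score as a term), with 5 higher. Hspa1a, the inducible chaperone Hsp70, was 389 to 898 (median 624) in the saline rats, against 263 to 625 (median 489) in the naive rats and was above the naive mean of its sex in 7 of 7 saline rats (log2 difference 0.30, SE 0.12, adjusted p = 0.547). The co-chaperones Fkbp4 and Dnaja1 had log2 differences of -0.21 and -0.16. Genes of the ER and integrated stress responses had 15 of 21 lower and a median of -0.066 (0.26 without scaling and -0.19 with the liver score as a term). Within that list the chaperone Hyou1 was 144 to 318 in saline rats and 254 to 444 in naive rats (log2 difference -0.54), whereas Asns, an amino acid stress target, was 56.7 to 309 in saline rats and 65.9 to 208 in naive rats (log2 difference 0.42). These lists thus held members of either direction.

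Proximal tubule genes varied widely among the saline rats, and their medians were below 0 when the arrays were scaled. Unscaled, these medians were above 0 but under the 0.32 of all genes. Slc7a7, Slc7a9, Slc22a5 and Gatm, picked by small p in their lists, were lower in saline rats in all 27 other settings (log2 differences of at most -0.11, -0.10, -0.044 and -0.17). Of 32 transporters tested 25 were lower, 6 at an unadjusted p under 0.05, where 5215 of all 11420 genes were lower and 3.8% were so at that p, with a median of -0.21 (0.13 without scaling and -0.087 with the liver score as a term). Slc7a7, a basolateral exporter of cationic amino acids, was 180.4, 456, 1029.6 and 867 in saline females and 1323, 317 and 102.05 in saline males. In naive rats it was 1146, 1507 and 1639 in females and 536, 1371 and 1349 in males (log2 difference -1.42, SE 0.57, adjusted p = 0.581). Rats 1F101, 1F102, 1M2 and 1M3 lay below every naive rat. Females 1F103 and 1F104 lay below every naive female and reached the naive range only through the naive male 8M81 (536). Male 1M1 was within the range of naive males. In Slc7a7, 6 of 7 saline rats were below the naive mean of their sex. Slc5a2, the main glucose carrier of the early tubule, was 54.3 to 1056 (median 268) in the saline rats, against 429 to 1116 (median 859) in the naive rats (log2 difference -1.31, SE 0.61, adjusted p = 0.618). Slc34a3, a phosphate carrier, was 85.9 to 1229 (median 364) in the saline rats, against 653 to 1103 (median 928) in the naive rats (log2 difference -1.199, SE 0.56, adjusted p = 0.618). Slc22a8, an organic anion transporter, was 484 to 2503 (median 1316) in the saline rats, against 1349.9 to 2822 (median 2438) in the naive rats (log2 difference -0.71, SE 0.33, adjusted p = 0.618), and Slc2a2, the basolateral glucose carrier, was 245 to 1066 (median 529) in the saline rats, against 544 to 1164 (median 885) in the naive rats (log2 difference -0.75, SE 0.36, adjusted p = 0.618). In each of these the lowest saline rats were 1M3 and 1F101, and 1F103 and 1M1 had the highest saline values. Slc7a9, the luminal cystine carrier, was 561 to 1505 in saline rats and 942 to 1597 in naive rats (log2 difference -0.55, unadjusted p = 0.0254), and the carnitine carrier Slc22a5 was 941 to 2152 in saline rats and 1529 to 2422 in naive rats (log2 difference -0.38, unadjusted p = 0.0186). Other bright genes of the list were closer between the groups: Slc34a1 had a log2 difference of -0.20, Lrp2 -0.10 and its partner Cubn -0.16. The 7 higher transporters, 0 of them at an unadjusted p under 0.05, included Slc9a3 (0.15), Slc22a7 (0.14) and Slc15a2 (0.12). A second, dimmer probe set of Slc34a1 had -0.83, with means of 1086 in saline and 1866 in naive rats (limma unadjusted p = 0.00174). The probe sets of Slc34a1 thus differed in size. The score of the list was -0.75 to 0.10 in saline rats and -0.29 to 0.16 in naive rats.

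Proximal tubule enzymes had 13 of 21 genes lower, 8 of them at an unadjusted p under 0.05 (3.8% of all genes), and 1 higher at that p (4.33% of all genes), with a median of -0.15 (0.18 without scaling). Gatm, which makes the precursor of creatine, was 2427 to 4511 (median 4033) in the saline rats, against 4049 to 5478 (median 5139) in the naive rats and was below the naive mean of its sex in 7 of 7 saline rats (log2 difference -0.51, SE 0.14, adjusted p = 0.36). Cyp27b1, which activates vitamin D, was 11.5 to 31.03 in saline rats and 12.8 to 42.6 in naive rats (log2 difference -0.42, unadjusted p = 0.0153). Hao2, a peroxisomal hydroxyacid oxidase, was 5648 to 7687 in saline rats and 6729 to 8512 in naive rats (log2 difference -0.16, unadjusted p = 0.0192), and Pck1, the rate-limiting enzyme of renal glucose synthesis, was 5511 to 7482 in saline rats and 6529.8 to 7651 in naive rats (log2 difference -0.15, unadjusted p = 0.0264). The groups overlapped in each of these genes. Without scaling, Hao2 and Pck1 each had a log2 difference of 0.18. The 1 enzyme higher at an unadjusted p under 0.05 was Ace, with means of 127.9 in saline and 86.2 in naive rats (log2 difference 0.49). A second, dimmer probe set of Ace had a log2 difference of 0.40. Of fatty acid oxidation genes and PPAR targets 18 of 23 were lower, with a median of -0.11 (0.22 without scaling), -0.037 in males and -0.24 in females. Beside Angptl4 and Pdk4, Acaa2, a thiolase of mitochondrial beta-oxidation, was 1157 to 2908 in saline rats and 1999 to 3088 in naive rats (log2 difference -0.38, unadjusted p = 0.0249), and Vnn1, which recycles pantothenate, was 369.5 to 1125 in saline rats and 772 to 2096 in naive rats (log2 difference -0.57, unadjusted p = 0.0278). Acadm and Hadhb, enzymes of the same pathway, had log2 differences of 0.083 and 0.080, so members stood on both sides.

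**Figure D4:**
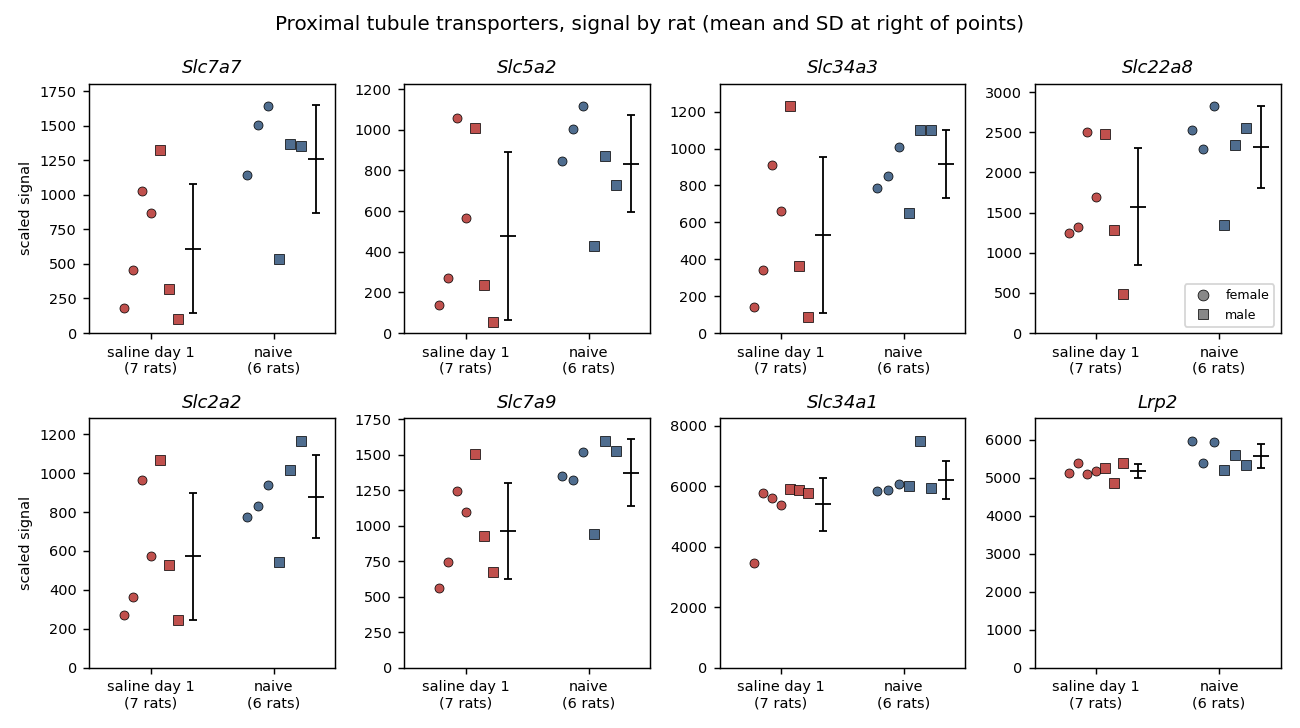
Scaled signal of 8 proximal tubule transporters by rat (axes from 0), with the mean and SD at the right of the points. Slc7a7, Slc5a2 and Slc34a3 spread over a wide range in saline rats (102.05 to 1323 for Slc7a7), while Lrp2 lies between 4856 and 5961 in all 13 rats.

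Most markers of the loop of Henle and distal tubule had slightly higher values in saline rats. Of 15 markers of the loop of Henle and distal tubule 13 were higher, 2 at an unadjusted p under 0.05 (4.33% of all genes), with a median of 0.093 (0.0041 with the liver score as a term). Of 16 collecting duct markers 10 were higher, where 54.3% of all genes were, with a median of 0.053 that was -0.00019 without 1F104 and 1M2. The scores were -0.087 to 0.30 in saline rats and -0.20 to 0.28 in naive rats for the loop and distal list, with wide overlap. Among genes of salt, volume and osmolyte handling, whose median was 0.029 over 16 genes, Stk39, the kinase that activates sodium chloride cotransporters, was 446 to 691 (median 566) in the saline rats, against 339 to 479 (median 422) in the naive rats (log2 difference 0.39, SE 0.10, adjusted p = 0.324). Slc5a3, a myo-inositol carrier induced by high tonicity, was 1728 to 4036 (median 2663) in the saline rats, against 1264 to 2204 (median 1956) in the naive rats (log2 difference 0.48, SE 0.15, adjusted p = 0.443). Wnk1, the kinase upstream of Stk39, was 2409.8 to 3283 in saline rats and 1928 to 2724 in naive rats (log2 difference 0.27, unadjusted p = 0.00866), and Agt, angiotensinogen, was 48.03 to 367 in saline rats and 29.3 to 265 in naive rats (log2 difference 0.42, unadjusted p = 0.00567). Stk39 and Slc5a3 were above the naive mean of their sex in 7 of 7 saline rats. A second, dimmer probe set of Stk39, with means of 169 in saline and 152 in naive rats, had a log2 difference of 0.15. Nfat5, the transcription factor of the tonicity response, overlapped fully at 1354 to 1838 in saline rats and 1173 to 2057 in naive rats (log2 difference 0.065), and Sgk1, a kinase induced by aldosterone and glucocorticoids, had a log2 difference of -0.24.

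Of 20 markers of tubular injury 14 were higher (54.3% of all genes), with a median of 0.12, and 2 of the 3 at an unadjusted p under 0.05 (4.33% of all genes) were the fibrinogen chains Fgg and Fgb given above. The third, Anxa2, a membrane-binding protein, was 764 to 1194 (median 1124) in the saline rats, against 569 to 945 (median 859) in the naive rats (log2 difference 0.26, SE 0.079, adjusted p = 0.427). Havcr1 (KIM-1), the injury marker of the proximal tubule, was 226 in 1F104 and 10.99 to 40.6 in the other 6 saline rats, against 14.2 to 32.95 in naive rats (log2 difference 0.30, SE 0.39, adjusted p = 0.855), and without 1F104 its log2 difference was -0.031. Lcn2, the secreted marker NGAL, was 42.2 to 138.5 in saline rats and 31.04 to 83.4 in naive rats (log2 difference 0.22), and Clu, clusterin, was 449 to 1221 in saline rats and 574 to 1092 in naive rats (log2 difference -0.10). Cdkn1a, the p53 target p21, was 55.5 to 112.5 in saline rats and 67.7 to 101.5 in naive rats (log2 difference 0.00061), and p53 targets had a median of 0.0033 over 14 genes (0.12 with the liver score as a term). Hmox1, haem oxygenase 1, was 2595 in 1M1 and 20.1 to 58.6 in the other 6 saline rats, against 24.9 to 44.2 in naive rats. Its log2 difference of 0.85 (SE 0.88, adjusted p = 0.81) was -0.055 without 1M1. Mt2A, a metallothionein, was 2275 to 4794 in saline rats and 2686 to 4385 in naive rats (log2 difference -0.12). Nrf2 targets and metal response genes had medians of 0.044 and 0.025 over 14 and 8 genes.

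Other cell types and pathways gave smaller or less even values. Of 17 fibroblast and matrix genes 16 were lower, with a median of -0.25 (0.075 without scaling and -0.14 with the liver score as a term), but this was -0.54 in males and 0.12 in females. Sparc, a matrix glycoprotein, was 309 to 528 (median 477) in the saline rats, against 495 to 1179.8 (median 753) in the naive rats and was below the naive mean of its sex in 7 of 7 saline rats (log2 difference -0.77, SE 0.19, adjusted p = 0.299). A second probe set of Sparc, with means of 470 in saline and 580 in naive rats, had a log2 difference of -0.31. Acta2, the smooth muscle actin, was 83.8 to 113.99 (median 98.8) in the saline rats, against 107 to 157.7 (median 135) in the naive rats (log2 difference -0.37, SE 0.095, adjusted p = 0.306), and Tgfb1, the growth factor that drives matrix production, was 45.3 to 82.3 in saline rats and 56.6 to 94.0 in naive rats (log2 difference -0.31, unadjusted p = 0.0256). Red blood cell genes had a median of -0.23 over 5 genes (0.10 without scaling, -0.32 in males and 0.12 in females). Hbb, the beta chain of haemoglobin, was 4251 to 6233 in saline rats and 5334 to 7603 in naive rats, and Alas2, which starts haem synthesis in red cell precursors, was 125 to 197 in saline rats and 149.2 to 331 in naive rats (log2 differences -0.23 and -0.48). Adipocyte markers had a median of -0.014 over 7 genes (-0.23 with the liver score as a term), but this was -0.77 in males and 0.43 in females. Their score ran from -0.98 to 1.49 in saline rats and -1.04 to 1.01 in naive rats, so fat markers varied within both groups. Medians were -0.022 over 14 endothelial genes (0.10 with the liver score as a term), 0.058 over 8 podocyte genes, 0.023 over 24 cell cycle genes (0.14 with that term), -0.080 over 23 lysosomal genes (0.25 without scaling) and 0.063 over 20 genes of sterol and fatty acid synthesis. They were -0.025 over 47 genes of the respiratory chain, -0.027 over 42 cytosolic and 0.037 over 72 mitochondrial ribosomal protein genes and 0.066 over 17 cytochrome P450 genes. Of adrenal markers 1 passed the filter on dim signals (Hsd3b1, 2.15 to 93.6 in saline rats and 1.29 to 53.5 in naive rats), while Star, Cyp11a1 and Cyp11b1, which define the cortex of that gland, reached at most 26.6 in saline rats and 29.2 in naive rats. Of skeletal muscle markers 2 passed: the probe set annotated as Myh1 was bright, with means of 4300 in saline and 4586 in naive rats, and Tnni2 was dim, with means of 28.7 and 31.5. Ckm, Acta1 and the other muscle myosins Myh2 and Myh4 did not pass and reached at most 27.6 in saline rats and 24.3 in naive rats. Whether the probe set annotated as Myh1 reads that gene was not tested.

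**Figure D5:**
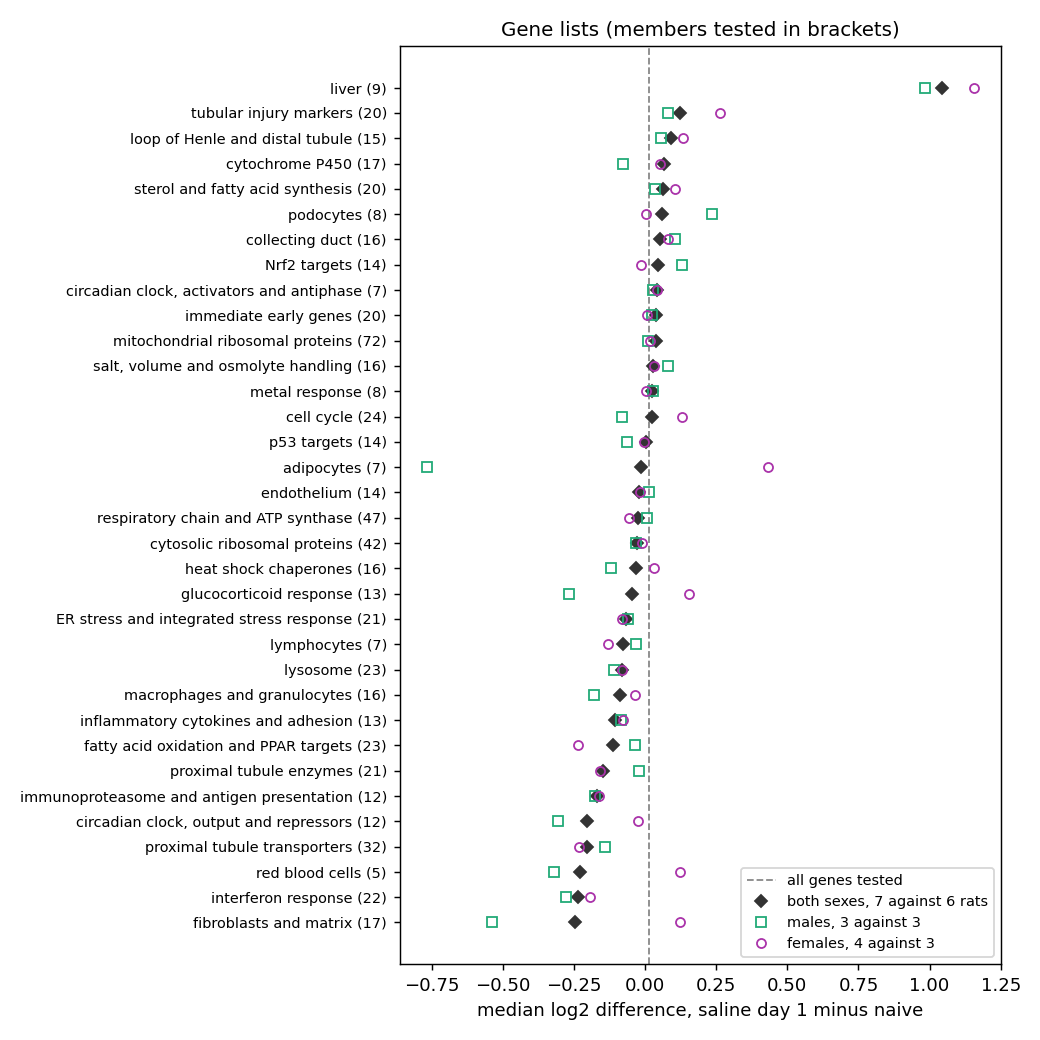
Median log2 difference, saline day 1 minus naive, for the 34 gene lists with at least 3 tested members, for both sexes together (diamonds) and for males and females alone, with a dashed line at the median of all genes (0.012). For both sexes together the liver list stands at 1.04, and all other lists lie between -0.25 and 0.12. Without scaling every one of these medians is above 0, between 0.07 and 1.25, and the median of all genes is 0.32. Adipocyte markers stand at -0.77 in males and 0.43 in females.

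No gene passed a test of a difference between the sexes. The male minus female difference passed in 0 genes (0%; limma gave 604 at an unadjusted p under 0.05), and in 2 without 8M81, 1 without 8M83 and 1 without 1F104. Of the genes with the smallest p, Sh3tc2, Pklr, the red cell and liver isoform gene of pyruvate kinase, and the matrix protease Mmp9 had male minus female differences of 1.202, 1.30 and 1.58, and Tsc22d3, Rexo4 and the collagen chain Col1a2 of -1.22, -1.09 and -1.19 (adjusted p = 0.359 for all 6). Rats given saline for 5 days (5 rats, 3 males and 2 females) were compared as well. Saline day 5 minus saline day 1 gave 0 genes (0%, with 515 at an unadjusted p under 0.05), and saline day 5 minus naive also gave 0 (0%, with 675). The smallest p of day 5 minus day 1 belonged to the collagen Col16a1 (0.41), the retinoic acid hydroxylase Cyp26b1 (0.68) and Rnf182 (0.54) among higher genes and to Cdr2 (-0.45), the polyamine enzyme Odc1 (-0.42) and Bmal1 (-0.54) among lower ones, with an adjusted p of 0.798. For day 5 minus naive they belonged to Dusp23 (1.06), the plasma protein Fetub (0.73) and Phf19 (0.58), and to Brcc3-ps7 (-0.89), the scavenger receptor Colec12 (-0.60) and Ky (-0.61), with adjusted p of 0.613 to 0.674. Side by side, and with naive rats shared, Angptl4 was 176 to 496 at day 5, a log2 difference from naive of -0.40 against -0.64 at day 1. Igfbp1 was 429 to 981 at day 5 (0.46 against 0.62), and Ubl5 was 918 to 1790.1 (-0.24 against -0.62). Isg15 was 79.6 to 156.4 (-0.25 against -0.58), and Dbp was 129.1 to 450.4 (0.12 against -0.55). Saline day 5 minus saline day 1 was 0.20 for Angptl4 (95% interval -0.28 to 0.69), 0.34 for Isg15 (-0.071 to 0.76) and 0.71 for Dbp (0.11 to 1.32). The intervals of Angptl4 and Isg15 include 0, that of Dbp does not, and its adjusted p over all genes was 0.798.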

How the data were processed

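Total RNA from the kidneys of 89 rats was hybridised to Affymetrix rat arrays, 1 per rat. The authors deposited a table of signal intensity values of 31099 probe sets, made with MAS5 per the submitters' processing notes, whose version, scaling target and detection calls, like the scan dates, are not stated in the sources used here. The 2% trimmed means of the arrays ran from 91.5 to 352, so all were scaled to 181 and taken to log2(signal + 16). Left out were 57 control probe sets, 436 with several symbols and 9780 with none. Symbols came from GEO's platform annotation, updated by Entrez identifier through RefSeq (GRCr8), and each gene kept its brightest probe set. Of 14217 named genes, 11420 exceeded the 40th percentile (33.06) on at least 5 arrays and were tested with limma 3.58.1 in R 4.3.3 (lmFit, robust eBayes with trend) with sex as a term and Benjamini-Hochberg adjustment at 0.05; the steps were tested on simulated data. data.table (version 1.17.8), Python 3.11.15, pandas 2.3.3 and matplotlib 3.10.9 were used.

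Groups came from the sample titles, and replicates are separate rats. Named were the 12 genes of smallest unadjusted p per direction, since none passed, the 3 smallest of each clock, glucocorticoid, immediate early, heat shock, interferon and proximal tubule list, preset genes, of which 1 is not reported here, and the 3 of smallest p per direction in other contrasts. Other names, among them the liver, distal and matrix genes, were picked with their values in view. The members and lists were chosen with earlier results of these data known. Alternatives were each rat left out, rats 1F104 and 1M2 left out, all 89 arrays in 1 fit, a pseudocount of 64 or 1, quantile normalization, no scaling, no filter or one on the 13 arrays, all probe sets, no sex term, the GAPDH ratio as a term, array weights, each sex alone, and the liver score as a term, which was chosen after seeing the data.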

Additional observations from a re-analysis of the deposited data

Results flagged for a closer look

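The 13 results below are listed because 1 rat stood far from the others of its group, by Dixon's criterion at 95%. They came from 180 examinations of a group of 6 or 7 rats, and chance lists about 1 in 20 groups. Of these 13, 5 concern saline male 1M1. In 1M1 Hmox1 was 2595, against 20.1 to 58.6 in the others, Fgg was 10.6, against 67.4 to 153 in the others, and Cyp27b1 was 31.03, against 11.5 to 18.0 in the others. The score of metal response genes in 1M1 was 0.84, against -0.23 to 0.041 in the others, and that of Nrf2 targets 0.55, against -0.10 to 0.16. In saline female 1F104 Havcr1 was 226, against 10.99 to 40.6 in the others. In saline female 1F102 Bmal1 was 156.8, against 118.5 to 132.1 in the others. In saline female 1F103 the score of ER stress genes was 0.13, against -0.19 to -0.071 in the others. In naive male 8M81 Slc7a9 was 942, against 1321 to 1597 in the others, and Slc7a7 was 536, against 1146 to 1639 in the others. In naive female 8F181 Sh3bp1 was 51.4, against 10.5 to 21.05 in the others. In naive female 8F182 Dnaja1 was 1591, against 2049 to 2265 in the others, and in naive male 8M82 Hao2 was 8512, against 6729 to 7141 in the others.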

How the results depend on the processing

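The comparison of saline day 1 with naive rats gave 0 genes in 13 of 15 settings other than leaving out 1 rat; it gave 25 without scaling of the arrays and 1 in males alone. Leaving out 1 rat at a time gave 0 to 10 genes, and for the difference between the sexes 0 to 2 (2 without both 1F104 and 1M2). The count against the compound groups of day 1 ran from 4 to 12 for saline rats and from 0 to 16 for naive rats. No paired analysis was possible because every array came from a rat of its own and the rat codes match none between groups. Of 1743 values of 65 named genes in 27 settings, 1686 kept their sign and side of the threshold, 19 passed it there, and 38 had the other sign. Without scaling, log2 differences of the other sign were 0.082 for Bhlhe41, 0.00070 for Bhlhe40, 0.21 for Jund, 0.088 for Nr4a1, 0.12 for Fkbp4, 0.17 for Dnaja1, 0.18 for Hao2, 0.22 for Clu, 0.21 for Mt2A, 0.11 for Per2, 0.18 for Pck1, 0.17 for Cyp2c11. Cdkn1a ran from -0.12 to 0.28 (no scaling) and was -0.0028 (pseudocount 1), -0.072 (GAPDH 3 to 5 ratio as a term), -0.064 (array quality weights), -0.093 (males only), -0.12 (liver list score as a term). In males alone Havcr1 was -0.41 and Mt2A 0.19, and in females alone Clu was 0.036 and Per2 0.30. With the liver score as a term, chosen after seeing the data, Lcn2 was -0.22, Clu 0.12 and Mt2A 0.030. Without both 1F104 and 1M2 Cyp2c11 was 0.16. With 1 rat left out, values ran from -0.00085 to 0.27 for Apob, -0.055 to 0.081 for Cdkn1a, -0.35 to 0.076 for Cyp2c11, -0.031 to 0.43 for Havcr1 and -0.055 to 1.17 for Hmox1. The cause was not tested for any of these. Detection calls were not used, so for values under a signal of 33.06 the differences depend on the 16 added before taking logs.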
